A study of Mus musculus with 3 samples.

Results

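The 8 genes described here encode cytokines: the interleukin-1 family members Il1a, Il1b, Il1rn and Il18, tumour necrosis factor (Tnf), interleukin-6 (Il6), interleukin-10 (Il10) and osteopontin (Spp1). They were chosen by name, not by their values, and are 8 of the 32886 genes in the authors' table of raw counts. That table holds 20266 immune cells, in 23 clusters named by the authors. The cells were sorted with an antibody to CD45, a surface protein of leukocytes, from perfused kidneys that had been dissected into 3 compartments, the cortex, the outer medulla (OM) and, innermost, the inner medulla (IM). The mice were C57BL/6J males, 10 weeks old and healthy, without any genetic change or treatment, so that the compartments were the only groups and the cortex was the reference. Each compartment is 1 sample in the labels, and each was profiled by droplet-based scRNA-seq in 3 datasets named after Aachen, Bonn and Hamburg, which gave 9 units of dataset and compartment that are called libraries here. Each Aachen library joins cells with 2 barcode suffixes, and the Hamburg cells of all compartments carry 1 suffix. How many animals stand behind a library is not given in the sources used here. The datasets therefore served as replicates. The p-values of the fits weigh a compartment difference against a spread over the datasets that is in part estimated from other genes. A small p-value therefore does not show that the 3 datasets agree.

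IL-1 alpha and IL-1 beta signal through the same receptor, and IL-1 receptor antagonist, the product of Il1rn, occupies that receptor without starting a signal. IL-1 beta and IL-18 are made as inactive precursors that caspase-1 cuts inside inflammasomes, so that a transcript level does not give the amount of active cytokine. TNF and IL-6 are released early in inflammation, IL-10 limits the production of inflammatory cytokines by macrophages, and osteopontin is a matrix protein and cytokine that is made by renal tubules as well as by leukocytes.

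Levels are given as UMIs (unique molecular identifiers, 1 per captured transcript) scaled to a total of 1e6 UMIs of the same cells (CPM), and are compared between cell types for 1 gene at a time, not between genes. Libraries held 621 to 3677 cells with a median of 744 to 1270 UMIs per cell in Aachen and of 2802 to 3505 in Bonn and Hamburg. The Aachen libraries were made with the second version of the 10x kit and the others with the third. Counts in the Hamburg cells were nearly all not whole numbers (0.118% were whole), and the Hamburg Spp1 total was 79.3% of the total after rounding each value up, against 96.5 to 98.8% for the other members. Within a dataset, pairs of libraries shared at most 8 cell barcodes. Resident macrophages, the 4 clusters Macrophage_1, Macrophage_2, Macrophage_3 and Isg+_Macrophage joined into a class, were 5367 cells, and the summed level of their 8 markers lay between 21672 and 41262 CPM in the 9 libraries, with no marker at 0.

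The sequence upstream of 3 genes is shown. Il1b and Tnf were taken because their highest macrophage levels lay in the same dataset, as did those of all members but Il18. Spp1 was taken for its lower fitted level in the medulla in cDC2, a test result that depended on single libraries. In GRCm38, the build that mm10 stands for, Il1b lies at chr2:129364570-129371139 on the minus strand, 54597 bases from Il1a, which lies at chr2:129299610-129309972 on the same strand. Tnf lies at chr17:35199381-35202007 on the minus strand and Spp1 at chr5:104435118-104441050 on the plus strand. Each line holds the 250 bases before the transcription start given by RefSeq (GRCm38.p6), 5′ to 3′ on the strand of the gene, at chr2:129371140-129371389, chr17:35202008-35202257 and chr5:104434861-104435110.
Il1b: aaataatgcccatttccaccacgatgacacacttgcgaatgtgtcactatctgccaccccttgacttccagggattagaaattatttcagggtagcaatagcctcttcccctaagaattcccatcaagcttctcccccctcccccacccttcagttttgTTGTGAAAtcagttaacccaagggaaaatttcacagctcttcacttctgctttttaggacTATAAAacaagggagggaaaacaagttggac
Tnf: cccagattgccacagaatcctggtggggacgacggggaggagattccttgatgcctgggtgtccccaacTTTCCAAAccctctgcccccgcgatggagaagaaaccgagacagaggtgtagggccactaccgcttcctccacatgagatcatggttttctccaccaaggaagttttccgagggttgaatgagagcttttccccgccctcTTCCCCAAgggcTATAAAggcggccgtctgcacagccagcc
Spp1: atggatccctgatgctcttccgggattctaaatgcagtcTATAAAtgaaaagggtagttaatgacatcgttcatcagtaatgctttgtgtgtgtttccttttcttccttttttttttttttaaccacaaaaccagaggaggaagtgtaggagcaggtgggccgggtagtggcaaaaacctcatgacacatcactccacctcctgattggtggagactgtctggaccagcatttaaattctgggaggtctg
Capitals mark matches, on either strand, to TATAAA (the TATA box) and to TTNNGNAA (a form of the C/EBP site), and no match overlapped another. A TATAAA match started 31 bases before the start of Il1b, 29 before that of Tnf and 211 before the first of the 2 starts of Spp1. A C/EBP match started 91 bases before the start of Il1b, and 181 and 41 bases before that of Tnf. TATAAA was found in 13.6% and TTNNGNAA in 40.7% of the 32851 windows of 300 bases in the same table, so that a single match is common and describes letters only. The forms searched for AP-1 (TGANTCA), CRE (TGACGTCA) and kappaB, present in 7.81, 1.79 and 8.46% of all windows, were not found in the windows of Il1b, Tnf or the first start of Spp1. A window was given for 7 of the 8 genes. Il1b overlaps the antisense gene Il1bos, and Spp1 overlaps Gm42793 on its own strand. Il1a overlaps Gm14023, and Il18 (chr9:50554827-50581840) overlaps Bco2 and Tex12, all on the opposite strand, and whether reads were assigned by strand is not given in the sources used here.

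The agonist Il1b was highest in neutrophils, with 6459 CPM in Aachen, 8874 in Bonn and 4465 in Hamburg (6599 ± 2208, SD, n = 3). Macrophage_1 came next with 693, 777 and 3667 CPM, and Macrophage_2 followed with 253, 206 and 2275 CPM. Neutrophils lay above Macrophage_1 in all 3 datasets, and this step was the only 1 of the 20 steps between neighbouring clusters that exceeded the larger SD of the pair. Behind them came Malat+_Macrophage with a mean of 754 CPM, Macrophage_3 with 713, Isg+_Macrophage with 687, cDC2 with 653 and Monocyte with 497. The next cluster, Prolif._cell, had a mean of 166 CPM, and T cells and B cells had 12.5 and 13.3 CPM. These orders are descriptions, because the clusters were built from the expression of the same cells.

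**Figure D1:**
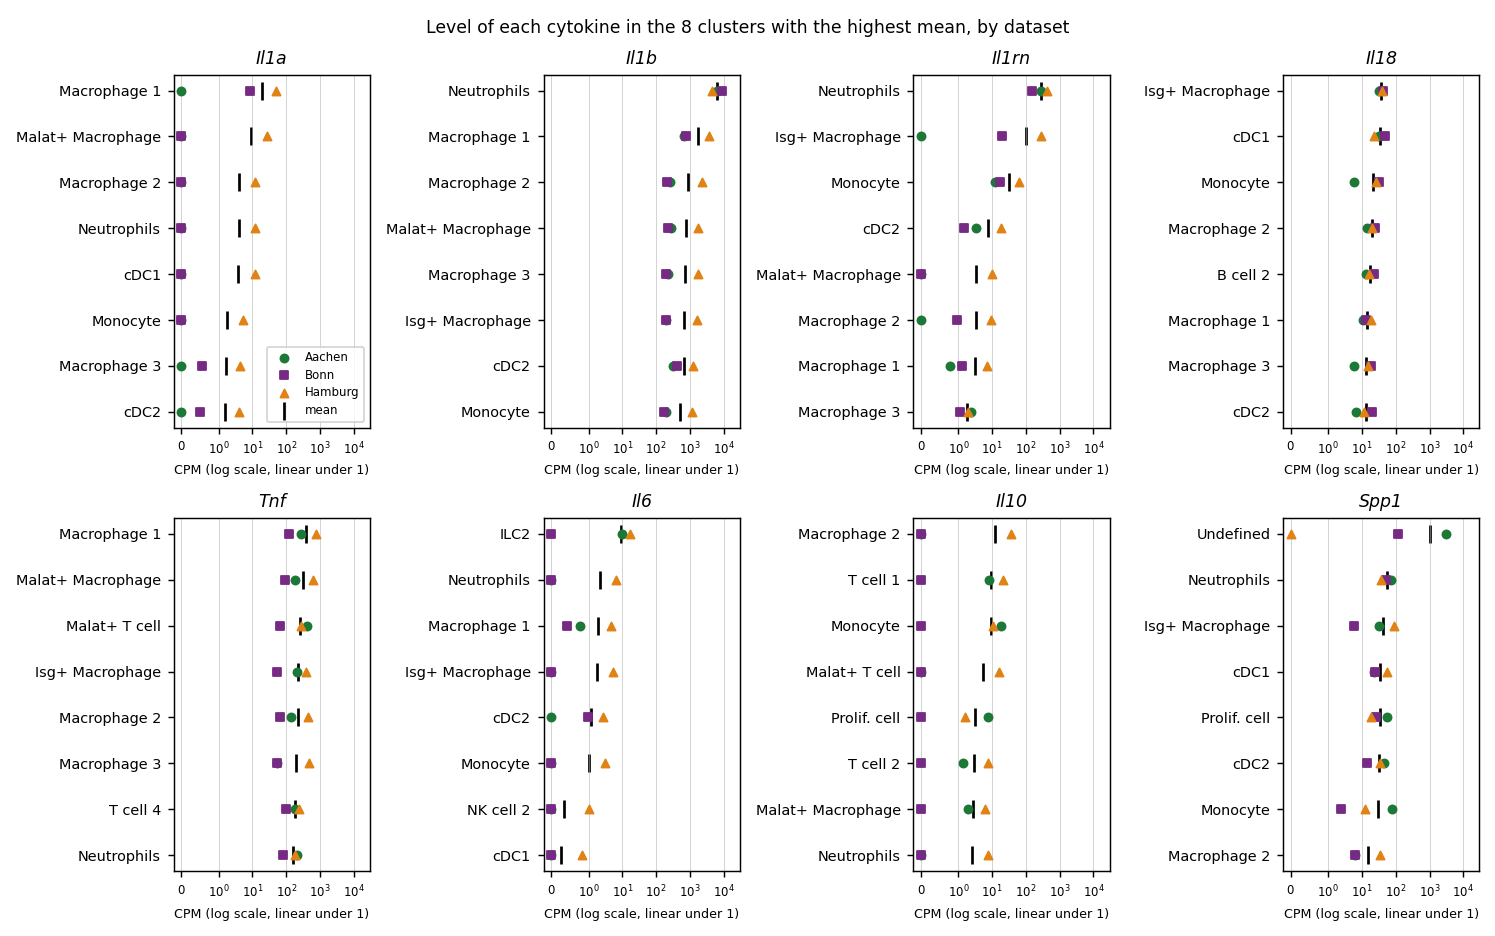
Level of each cytokine in the 8 clusters with the highest mean, out of 21 clusters with at least 10 cells in each dataset. Points are the CPM of 1 cluster in 1 dataset on a log scale that is linear under 1, and the bar is their mean: neutrophils lead for Il1b and Il1rn, macrophage clusters for Tnf and Il1a, and the Hamburg points are the highest in the macrophage clusters of the Il1b panel.

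The distance between neutrophils and macrophages was not the same in each dataset. The Il1b level of Macrophage_1 was 10.7% of that of neutrophils in Aachen, 8.76% in Bonn and 82.1% in Hamburg. In resident macrophages as a whole the Hamburg level was 6.95-fold that of Aachen and 7.74-fold that of Bonn, whereas in neutrophils it was 0.691-fold and 0.503-fold. Monocytes (5.90-fold and 6.78-fold) and cDC2 (4.03-fold and 3.06-fold) stood on the side of the macrophages. In resident macrophages, Hamburg exceeded the mean of the other datasets by 2.87 on the log2 scale for Il1b, which was more than 99.6% of 8569 genes, whose 5th to 95th percentiles ran from -0.92 to 1.01.

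The other members did not all go as Il1b in neutrophils. There the Hamburg level of Il1rn was higher, 1.45-fold that of Aachen and 2.70-fold that of Bonn. That of Tnf lay between them (0.877-fold and 2.28-fold), and that of Spp1 was lower (0.504-fold and 0.679-fold). In resident macrophages the log2 excess of Hamburg was 3.75 for Il1a, 3.87 for Il1rn, 2.27 for Tnf, 3.78 for Il10, 1.73 for Il6 and 1.54 for Spp1. It was 0.32 for Il18, which had 69.9% of the genes below it. These are differences of log2(CPM + 1), as for Il1b. Il10 was 0 CPM in Aachen and Bonn, so that the added 1 sets its value. The added 1 also sets much of the values of Il1a, Il1rn and Il6, which had few CPM there. A list of 13 immediate early and stress genes, such as Fos and Hspa1a, which many cell types raise within minutes of handling, was highest in Hamburg too. Its summed level in resident macrophages was 16054 to 25694 CPM in Aachen, 2635 to 11045 in Bonn and 40986 to 45953 in Hamburg. Between Aachen and Bonn the members divided. In resident macrophages Tnf was 171 and 78.5 CPM, Spp1 12.7 and 5.52 CPM and Il1b 416 and 374 CPM, higher in Aachen as the list was. Il6 was higher in Aachen too, but near the limit of detection. Il18 was lower in Aachen, and Il10 was 0 CPM in both. Il1a was 0 and 2.63 CPM and Il1rn 0.929 and 1.97 CPM, but both were scarce. Il1a had 0 and 21 UMIs in all cells, and Il1rn 0 to 3 UMIs per library of macrophages in Aachen and 2 to 8 in Bonn. No direction is read for these 2 genes. In T cells the summed level of the list was 10756 to 16550, 3189 to 6645 and 21261 to 28045 CPM. The Hamburg level of Tnf in T cells was 0.684-fold that of Aachen and 1.03-fold that of Bonn. Dataset, kit version, facility and animals cannot be told apart, and the part of the stress genes in the cytokine levels was not tested.

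Counted by UMIs rather than by level, resident macrophages held the largest share of the Il1b transcripts in each dataset. They carried 73.2% of all Il1b UMIs in Aachen, 49.5% in Bonn and 54.2% in Hamburg, with 42.6, 21.9 and 14.0% of the cells. Neutrophils were only 0.350, 0.828 and 2.83% of the cells and carried 5.0, 26.4 and 17.7% of the Il1b UMIs. In Hamburg and Bonn the cDCs, the conventional dendritic cells cDC1 and cDC2 together, added 11.95 and 14.6%. These shares depend on the cell numbers of each sort and describe the libraries, not the kidney.

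**Figure D2:**
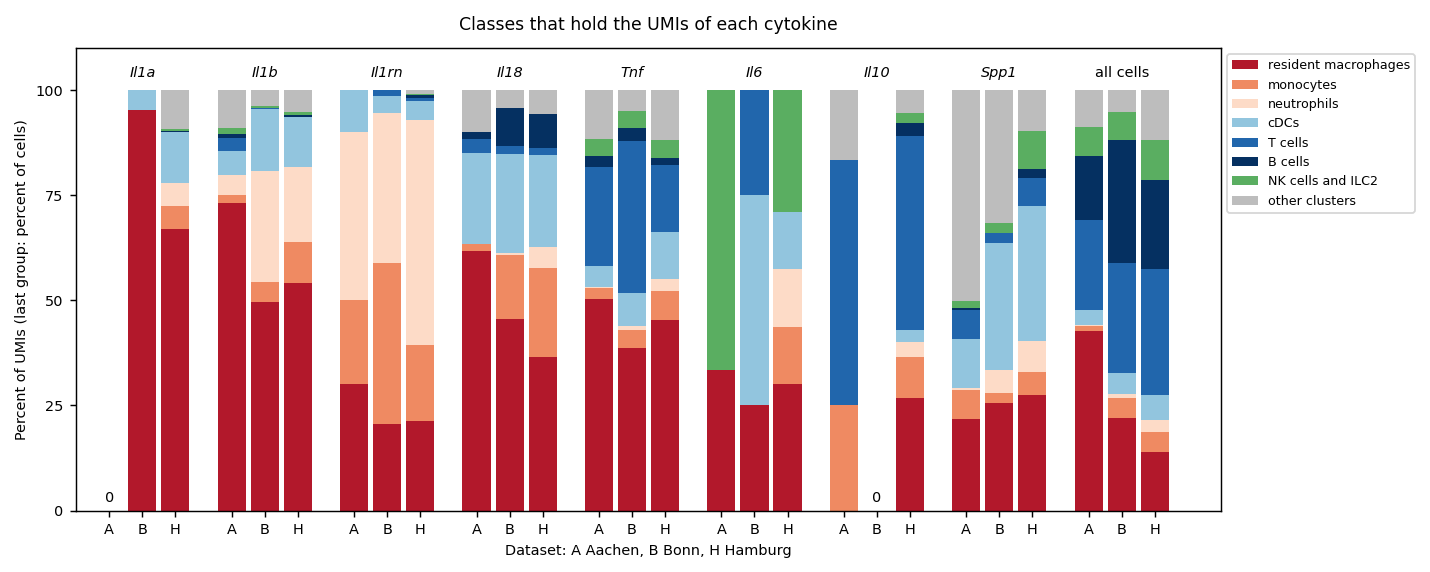
Share of the UMIs of each cytokine found in 8 groups of clusters, in each dataset, with the share of cells in the last group of bars. A 0 marks a dataset without any UMI of the gene. Resident macrophages hold the largest share of Il1b and Tnf in each dataset, neutrophils or monocytes that of Il1rn, and Il6 rests on 3, 4 and 36.2 UMIs.

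Il1a, the other agonist, was scarce, with 0, 21 and 161 UMIs in Aachen, Bonn and Hamburg. Macrophage_1 had 0, 8.31 and 49.9 CPM, and resident macrophages carried 95.2% of the Bonn and 67.1% of the Hamburg UMIs. In the Hamburg OM, 2 Macrophage_1 cells held 23.9 and 22.0 of its UMIs, and both carried more than 80 UMIs of macrophage markers (123 and 88.2). No neighbouring pair of clusters was apart by more than its larger SD. In Aachen no resident macrophage had a UMI, which with 496, 1952 and 596 cells in cortex, OM and IM allows shares of cells with a UMI of up to 0.605, 0.154 and 0.503% at the depth of these libraries, and sets no limit on cells that express the gene. These limits and all binomial intervals cover counting error only.

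The antagonist Il1rn had a neutrophil peak of 284, 152 and 412 CPM (283 ± 130, SD, n = 3). Isg+_Macrophage, the cluster named for interferon-stimulated genes, followed with 0, 19.97 and 284 CPM, and Monocyte with 11.98, 16.6 and 63.8 CPM. The 3 other resident macrophage clusters stayed at means of 1.82 to 3.31 CPM. In the Isg+ cluster up to 43.8% of the Il1rn UMIs of a dataset came from 1 cell. Neutrophils therefore led for both the agonist and its antagonist, while Macrophage_1, next for Il1b, had 0.784, 1.31 and 7.11 CPM of Il1rn, 0.276 to 1.73% of the neutrophil level.

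Il18 followed another order. In resident macrophages as a class its Hamburg level was 1.77-fold that of Aachen and 0.981-fold that of Bonn, but single clusters varied more, with 4.31-fold and 0.835-fold in Monocyte. It was highest in Isg+_Macrophage with 31.3, 42.8 and 38.0 CPM (37.4 ± 5.79, SD, n = 3) and in cDC1, the cross-presenting dendritic cells, with 32.0, 47.5 and 23.1 CPM. Monocyte (20.9 CPM), Macrophage_2 (19.8 CPM) and B_cell_2 (17.6 CPM) came next, the last being a lymphoid cluster among myeloid ones. The B_cell_2 level rested on only 0 to 6 Il18 UMIs per library. The step from cDC1 to Monocyte exceeded the larger SD, and that from Isg+_Macrophage to cDC1 did not. Neutrophils, first for the other IL-1 family cytokine of this pathway, had 0, 11.7 and 12.9 CPM. The ranks of the 21 clusters correlated between datasets at Spearman's rho of 0.83 to 0.93 for Il18 and 0.70 to 0.84 for Il1b, where the points share libraries and depth.

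Tnf was highest in Macrophage_1 with 271, 120 and 744 CPM (378 ± 326, SD, n = 3). Malat+_Macrophage (304 CPM), Malat+_T_cell (251 CPM), Isg+_Macrophage (220 CPM), Macrophage_2 (219 CPM) and Macrophage_3 (194 CPM) followed, all within the SD of their neighbours. T_cell_4, a small cluster of 161 cells, reached 188, 99.6 and 245 CPM. Unlike Il1b, Tnf thus had lymphoid clusters among its 8 highest, and T cells carried 23.6, 36.3 and 15.9% of its UMIs against 50.3, 38.6 and 45.3% for resident macrophages.

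Il6 and Il10 were near the limit of detection. Il6 was highest in ILC2, the type 2 innate lymphoid cells, with 9.99, 0 and 17.3 CPM from 11.6 UMIs in 424 cells, up to 70.6% of those of a dataset in 1 cell. Il10 had 12 UMIs in Aachen, 0 in Bonn and 171 in Hamburg. Its highest clusters were Macrophage_2 with 0, 0 and 37.2 CPM, T_cell_1 with 7.96, 0 and 20.4 CPM and Monocyte with 18.0, 0 and 10.3 CPM, and all 20 steps lay within the SD. T cells carried 58.3% of the Aachen and 46.2% of the Hamburg Il10 UMIs, and resident macrophages 0 and 26.7%.

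Spp1 was highest in the cluster the authors called Undefined, with 3051, 120 and 0 CPM. Of its 85 Aachen OM UMIs 84 came from 1 cell, which held 4 UMIs of tubular epithelial markers. In the Bonn IM all 40 UMIs lay in the 20 of 28 Undefined cells that had at least 10 UMIs of tubular markers, such as Umod and Slc12a1. Among the named immune clusters Spp1 was low and spread widely: Neutrophils had a mean of 53.2 CPM, Isg+_Macrophage 41.4, cDC1 34.9, cDC2 31.5, Monocyte 30.8 and Macrophage_2 15.5, and no pair of neighbours was apart by more than its SD. The cDCs carried 11.6, 30.3 and 32.0% of all Spp1 UMIs and resident macrophages 21.7, 25.5 and 27.5%.

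Since depth differed between datasets, the share of cells with a transcript was compared after each cell had been thinned to 500 UMIs, with shallower cells left out, which kept 2822 of 3044 resident macrophages in Aachen and all 1349 and 974 in Bonn and Hamburg. Il1b was then found in 14.0% of resident macrophages in Aachen (exact 95% binomial interval 12.8 to 15.4%), 13.5% in Bonn (11.7 to 15.4%) and 49.8% in Hamburg (46.6 to 53.0%). Without thinning the shares were 22.9, 52.4 and 76.4%, so that Bonn lay between Aachen and Hamburg at its own depth and beside Aachen at equal depth. T cells, which should lack Il1b, had shares of 0.792, 0.0623 and 0.191%, a background well under the macrophage shares. The library medians ranged from 783 to 4735 UMIs per resident macrophage.

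Tnf was found in 7.16% of thinned resident macrophages in Aachen (6.23 to 8.17%), 3.26% in Bonn (2.38 to 4.35%) and 16.5% in Hamburg (14.2 to 19.0%). T cells, which make Tnf, had 6.91, 3.80 and 4.25%, and B cells 1.02, 0.332 and 1.498%. The Tnf shares of macrophages and T cells were thus alike in Aachen and Bonn, and the Hamburg share was higher in macrophages. The other 6 members were found in at most 1.33% of thinned resident macrophages of a dataset.

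**Figure D3:**
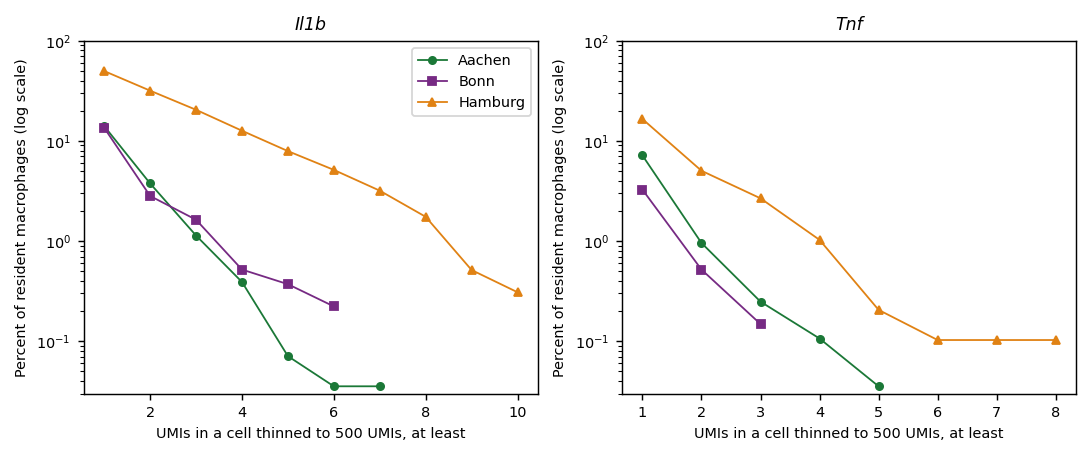
Percent of resident macrophages, each thinned to 500 UMIs, that held at least the number of UMIs on the horizontal axis, on a log scale, for Il1b and Tnf. The Hamburg curve lies above the others at each number, and 0.308% of the Hamburg cells held 10 or more Il1b UMIs against 0 in Aachen and Bonn.

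The highest 10% of thinned resident macrophages carried 79.4% of the Il1b UMIs in Aachen, 81.7% in Bonn and 44.5% in Hamburg. Because only 14.0 and 13.5% of the Aachen and Bonn cells held any Il1b UMI, a high value is set there by sparse counts. Cells with an Il1b UMI held a Tnf UMI in 9.09, 6.59 and 18.1% of cases, and cells without one in 6.84, 2.74 and 14.9%. The share with Tnf was higher among Il1b cells with the compartments joined, but not in every library: it was 12.6 against 13.6% in the Aachen cortex, 4.87 against 4.41% in the Aachen OM and 16.96 against 16.7% in the Hamburg cortex. No test was made, since the cells of a library are not replicates. Il1rn and Il1b were found together in 1, 0 and 5 thinned cells.

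**Figure D4:**
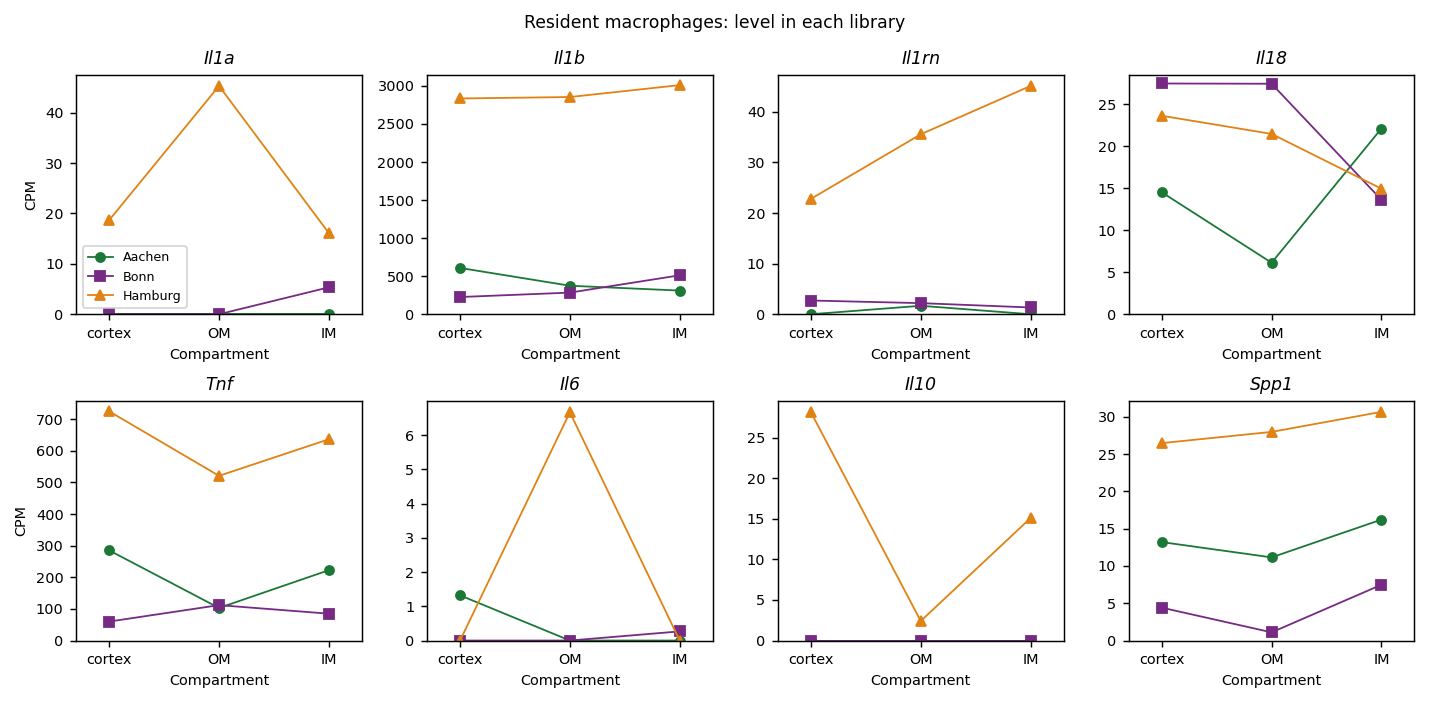
CPM of each cytokine in resident macrophages of the 9 libraries, with 1 line per dataset across cortex, OM and IM. The Hamburg line lies above both others for all members but Il18 and Il6, and no member has the same order of compartments in all 3 datasets.

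The study asked how immune cells differ with their position in the kidney. In resident macrophages as a class no member was called between compartments. Il1b was 608, 375 and 311 CPM in cortex, OM and IM of Aachen, 226, 284 and 512 CPM in Bonn and 2836, 2854 and 3011 CPM in Hamburg. The order of the compartments was opposite in Aachen and Bonn, and in Hamburg the values differed little. The summed level of the immediate early and stress genes had the same order, with 25694, 17029 and 16054 CPM in Aachen and 2635, 4220 and 11045 CPM in Bonn, against 45953, 40986 and 45448 CPM in Hamburg, and its part in the Il1b values was not tested. The share of Macrophage_1, the resident cluster with the highest Il1b level, also differed, with 59.3, 33.6 and 33.9% of the resident macrophages in cortex, OM and IM of Aachen. For Bonn it was 4.45, 17.9 and 44.4%, and for Hamburg 57.8, 46.4 and 56.8%. Within Macrophage_1, Il1b was 785, 688 and 515 CPM in Aachen, 1481, 773 and 743 CPM in Bonn, where the cortex held only 24 of these cells, and 3414, 3815 and 3692 CPM in Hamburg. The rise from cortex to IM in the Bonn class was not seen within that cluster. In the class the fitted log2 difference of the medulla (mean of OM and IM) from the cortex was -0.01 ± 0.24 (SE), with an adjusted p of 0.9996 in the quasi-likelihood test of edgeR, in which dataset was a block. Tnf was 285, 103.1 and 223 CPM in Aachen, 60.0, 112 and 84.9 CPM in Bonn and 725, 521 and 637 CPM in Hamburg, with -0.23 ± 0.24 (adjusted p = 0.850).

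In this comparison 108 of 8687 genes, 1.24%, were called at an adjusted p under 0.05, and none of the 7 members that passed the filter on low counts was. The same held for OM against cortex (0.852% of genes called), IM against cortex (0.196%) and OM against IM (0% by edgeR, with 267 genes at an unadjusted p under 0.05). In the medulla comparison 1 of the 7 members had an unadjusted p under 0.05, beside 878 of 8687 genes, and DESeq2 called none. In Macrophage_1 alone none of 5 members was called (0.516% of genes called for the medulla and 0.473% for the OM), and 3 had for the medulla an unadjusted p under 0.05, beside 498 of 6978 genes: Il1b with -0.37 ± 0.16 (adjusted p = 0.606), Tnf with -0.43 ± 0.20 (adjusted p = 0.649) and Spp1 with 1.45 ± 0.64 (adjusted p = 0.584). For the other members of the class the medullary differences were 1.28 ± 0.71 for Il1a, 0.43 ± 0.41 for Il1rn, -0.48 ± 0.29 for Il18 and 0.17 ± 0.29 for Spp1, all with adjusted p of 0.599 or more. Single libraries turned the sign for Il1a, to -1.12 without the Hamburg OM that held the 2 high cells, for Il1rn, to -0.37 without the Hamburg cortex, and for Spp1, to -0.046 without the Bonn IM. Il6 did not pass the filter in any of the 21 classes and clusters fitted.

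The member with the unadjusted p under 0.05 was Il10, an inhibitor of macrophage activation. It was 28.1, 2.41 and 15.1 CPM in cortex, OM and IM of Hamburg and 0 in the other 6 libraries. The cortex value came from 26.8 UMIs in 7 cells. The log2 difference was -2.18 ± 0.64 for the medulla (adjusted p = 0.187) and -3.48 ± 0.84 for the OM alone (adjusted p = 0.110), so that neither was called. In Bonn, 0 of 539, 168 and 642 macrophages in cortex, OM and IM held a UMI, which allows shares of cells with a UMI, not of cells that express Il10, of up to 0.557, 1.79 and 0.467%. Without the Aachen libraries, which held no Il10 UMI in macrophages, the adjusted p was 0.0337.

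The balance of agonist to antagonist was described by the log2 ratio of Il1b to Il1rn UMIs in resident macrophages, with a prior count of 2. It was 7.85, 7.07 and 6.73 in cortex, OM and IM of Aachen, 6.06, 6.03 and 8.10 of Bonn and 6.83, 6.28 and 5.997 of Hamburg. The Aachen cortex and IM held 0 Il1rn UMIs, so that their values are set by the Il1b count and the prior, and no direction is read for Aachen. The ratio was lower in the medulla in Hamburg, and in Bonn it was higher in the IM only. The mean difference was -0.22 ± 1.06 (SD, n = 3), with p = 0.778 in a two-sided exact permutation test of the compartments within datasets, where 27 arrangements allow no p below 0.037. The ratio rests on 0 to 58.4 Il1rn UMIs per library.

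The other genes of these pathways were taken from 8 lists with 65 genes, of which 59 passed the filter in resident macrophages. Of these, 1 was higher and none lower in the medulla, next to 1.24% of all genes called. This was Maf, a transcription factor that promotes Il10 expression in macrophages. It had 98.99, 296 and 121 CPM in cortex, OM and IM of Aachen, 189, 420 and 304 CPM in Bonn and 104, 175 and 141 CPM in Hamburg. The cortex was the lowest and the OM the highest in each dataset, and the log2 difference was 0.86 ± 0.18 (adjusted p = 0.0295). The share of Macrophage_3 in the class also differed, with 0, 44.7 and 1.17% in cortex, OM and IM of Aachen. For Bonn it was 7.05, 42.9 and 43.1%, and for Hamburg 0, 23.0 and 15.4%. The part of this mixture in the Maf difference was not tested. Il10 itself was not called and its fitted difference had the opposite sign.

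By list, the median log2 difference of the medulla was 0.60 for the 5 tested IL-1 and IL-18 receptors and decoys, -0.01 for the 8 inflammasome genes, 0.01 for 7 genes of the TNF axis, 0.25 for 5 of the IL-6 axis and 0.18 for 5 of the IL-10 axis. It was -0.39 for the 5 Spp1 receptors, -0.06 for 11 genes of NF-kappaB and its feedback and 0.28 for the 13 immediate early and stress genes, against 0.01 for all genes. The IL-6 axis contained Socs3, a feedback inhibitor of cytokine signalling, with the largest of these named differences. Socs3 had 54.1, 127 and 38.3 CPM in Aachen, 20.3, 38.4 and 284 CPM in Bonn and 215, 349 and 417 CPM in Hamburg, and was not called (1.49 ± 0.52, adjusted p = 0.247).

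Among the receptors, Il1r1, Il18r1, Il10ra and Cd44 were picked after their values were seen, so that they describe single genes and not receptors as a group. Il1r1, the signalling receptor of IL-1, had 0.175 ± 0.151 CPM in resident macrophages (SD, n = 3) and was highest in T_cell_4 with 127 ± 69.7 CPM. The decoy receptor Il1r2, which binds IL-1 without a signal, had 26.7 ± 17.9 CPM in resident macrophages and 2150 ± 1697 CPM in neutrophils, the cluster that also led for Il1b and Il1rn. Il18r1, the receptor of IL-18, was highest in T_cell_4 (310 ± 174 CPM) and NK_cell_1 (127 ± 55.5 CPM). The TNF receptor Tnfrsf1a was spread more evenly, with 127 ± 55.5 CPM in resident macrophages and 242 ± 26.1 CPM in neutrophils. Il10ra had 331 ± 230 CPM in resident macrophages and Cd44, a receptor of osteopontin, 53.8 ± 25.1 CPM there and 659 ± 177 CPM in neutrophils. The other genes named for their level in resident macrophages were Pycard, the inflammasome adaptor (100.7 ± 21.6 CPM), the integrin chain Itgb1 (189 ± 98.8 CPM), Zfp36, which destabilises the mRNA of Tnf (1773 ± 1891 CPM), and the heat shock gene Hspa1a (3659 ± 2251 CPM). With Il1r2 and Tnfrsf1a, their medullary log2 differences lay between -0.06 and 0.28, with adjusted p of 0.887 or more.

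Outside resident macrophages, 1 of the 8 genes was lower in the medulla in a dendritic cell class. Spp1 in cDC2, the dendritic cells that present antigen to CD4 T cells, was 137, 15.1 and 18.9 CPM in cortex, OM and IM of Aachen, 20.9, 9.77 and 10.7 CPM in Bonn and 102, 11.4 and 37.0 CPM in Hamburg. The cortex was the highest of the 3 compartments in each dataset. The UMIs behind these values were few, with 10, 2 and 2 for Aachen, 16, 3 and 10 for Bonn and 26.5, 8.80 and 15.7 for Hamburg, where 1 cortex cell held 19.5. The level fell in the medulla by 2.05 ± 0.38 on the log2 scale (edgeR adjusted p = 0.0155) and in the OM by 2.67 ± 0.48 (adjusted p = 0.0229), next to 0.304 and 0.101% of 4935 genes called. IM against cortex was not called (-1.42 ± 0.40, adjusted p = 0.319).

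The cDC2 call depended on single libraries. The call was lost without the Hamburg OM library (-1.66, adjusted p = 0.286), without the Hamburg cortex library (-1.82, adjusted p = 0.324) and without the Aachen cortex library (-1.88, adjusted p = 0.0864). It was also lost with the highest cell of each library left out (-1.36, adjusted p = 0.897), and DESeq2 gave the same difference with an adjusted p of 0.367. Tubular markers come from epithelium that also makes Spp1, and their part in the cDC2 values was not tested. Their summed level in cDC2 ranged over 15.6 to 27.4 CPM for cortex, over 37.7 to 78.8 CPM for OM and over 32.1 to 140 CPM for IM libraries, with 5 to 11 of the 13 markers at 0. Of the cDC2 with Spp1, 1 of 8, 1 of 13 and 0 of 25 in Aachen, Bonn and Hamburg held a UMI of a tubular marker. Among all cDC2, 11 of 153, 93 of 238 and 16 of 277 held such a UMI.

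In cDC1 alone Spp1 was 20.6, 0 and 38.1 CPM in Aachen and 45.5, 34.0 and 128 CPM in Hamburg, with 28.8 CPM in the cortex and 17.9 CPM in the IM of Bonn, and did not pass the filter. The highest compartment was here the IM in Aachen and Hamburg. The UMIs behind these values were 4, 0 and 4 in cortex, OM and IM of Aachen. In Hamburg they were 24.9, 14.1 and 27.8, where 1 IM cell held 14.4. The clusters took different shares of the joint class, with 43 cDC1 and 22 cDC2 in the cortex against 21 and 81 in the OM of Aachen, 53 and 42 against 58 and 160 in Hamburg, and 56 and 83 in the cortex against 13 and 115 in the IM of Bonn. The part of this mixture in the joint difference was not tested. For cDC1 and cDC2 together the level fell by 1.10 ± 0.25 in the medulla (adjusted p = 0.0251) and by 1.82 ± 0.33 in the OM (adjusted p = 0.00761), next to 1.81 and 0.987% of genes called. The medulla call was lost without the IM or cortex library of Bonn, the OM or cortex library of Aachen and the OM or cortex library of Hamburg, with -1.55 to -0.89 and adjusted p of 0.0718 to 0.388. It was also lost without all of Aachen (-1.03, adjusted p = 0.130) or all of Bonn (-0.995, adjusted p = 0.0528).

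**Figure D5:**
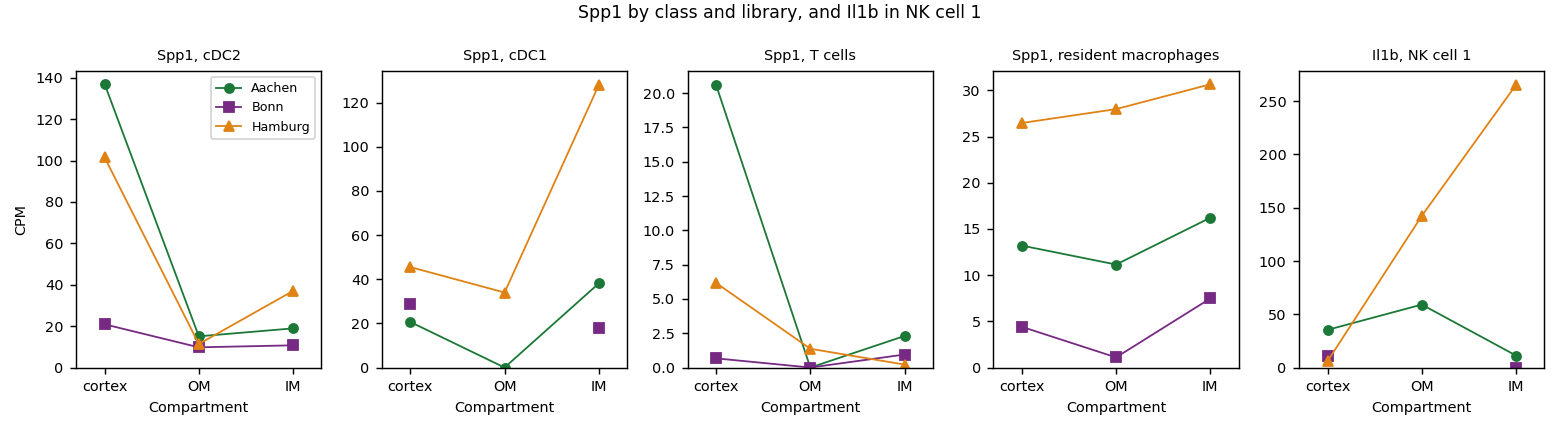
CPM of Spp1 in cDC2, cDC1, T cells and resident macrophages, and of Il1b in NK_cell_1, in each library with at least 10 cells of the class, with 1 line per dataset. In cDC2 the cortex is the highest compartment in each dataset, in resident macrophages it is not, and the high Il1b values of NK_cell_1 are the Hamburg OM and IM libraries.

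Il1b in NK_cell_1, a natural killer cell cluster with 12643 to 23077 CPM of NK markers, was the other gene called. It was 35.4, 59.1 and 11.2 CPM in cortex, OM and IM of Aachen, 10.9 and 0 CPM in cortex and IM of Bonn, where the OM held only 7 cells and was not fitted, and 5.93, 142 and 265 CPM in Hamburg. Both medullary values exceeded the cortex in Hamburg only, and the Aachen and Bonn values overlapped between compartments. The fitted log2 difference was 2.92 ± 0.48 for the medulla (adjusted p = 2.90e-06), 2.59 ± 0.55 for the OM (adjusted p = 0.00281) and 3.25 ± 0.50 for the IM (adjusted p = 1.06e-07), next to 0.145, 0.0868 and 0.318% of 3458 genes called.

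These transcripts sat in few cells that also held macrophage or neutrophil markers. The summed level of the 8 macrophage markers in the cluster was 12.3 to 6719 CPM, with 0 to 7 of them at 0. Of 147 Il1b UMIs in the cluster, 94.3% lay in the 25 of 606 cells that had at least 10 UMIs of such markers. The 4 highest cells held 43.5, 32.5, 28.3 and 10.5 Il1b UMIs and 152, 62.8, 91.9 and 104 UMIs of macrophage markers, beside 54.5, 61.4, 82.8 and 56.7 UMIs of NK markers. Without the 25 cells the difference was 0.96 (adjusted p = 1, without a filter on low counts). It reversed to -1.06 without the Hamburg cortex library (adjusted p = 0.999), was 3.80 without the Hamburg OM library (adjusted p = 0.947), and the scaling by size factors (RLE) left it at 2.92 with an adjusted p of 0.0983.

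In all, 200 tests of a member in a class were made over 21 classes and clusters and 4 contrasts, and the 7 calls were those of Spp1 in cDC2 and in cDCs and of Il1b in NK_cell_1. The other 17 classes gave 140 tests by edgeR with 0 calls, next to 0.104% of all genes called, and 14 unadjusted p under 0.05. The share of all genes at that unadjusted p is not given here, and the 14 are not read as a result about the members. The tests nearest to a call were Tnf in Monocyte, OM against cortex (-1.07 ± 0.28, adjusted p = 0.0597), and Tnf in T_cell_4, OM against IM (2.09 ± 0.52, adjusted p = 0.0596). Tnf in Monocyte was 189, 46.4 and 232 CPM in cortex, OM and IM of Aachen, 29.7, 69.2 and 58.3 CPM in Bonn and 390, 130 and 147 CPM in Hamburg. The cortex exceeded the OM in Aachen and Hamburg and not in Bonn.

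Whether Spp1 differed between classes in its change with position was tested as an interaction. The medullary difference of resident macrophages exceeded that of cDC2 by 2.24 ± 0.48 (adjusted p = 9.13e-04, 0.938% of genes called). Spp1 did not pass the filter on low counts in T cells, B cells or NK_cell_1 alone and entered their joint fits only through the macrophages. The fitted values were 2.999 ± 0.68 for T cells (adjusted p = 0.0461, 0.44% called), 6.19 ± 1.23 for NK_cell_1 (adjusted p = 6.96e-04, 0.248% called) and 0.84 ± 1.10 for B cells (adjusted p = 0.980, 1.18% called), and no difference between the classes is read from them. In resident macrophages Spp1 was 13.2, 11.1 and 16.2 CPM in cortex, OM and IM of Aachen, 4.41, 1.10 and 7.48 CPM in Bonn and 26.5, 28.0 and 30.7 CPM in Hamburg. The values of T cells and NK_cell_1 rested on single cells: 11 of 11 Spp1 UMIs in T cells of the Aachen cortex lay in 1 cell, as did 20.7 of 21.5 in NK_cell_1 of the Hamburg cortex. In the cDC2 cortex 1 cell held 6 of 10 Spp1 UMIs in Aachen and 19.5 of 26.5 in Hamburg. The interaction was not refitted without these cells. Of the resident macrophages with Spp1, 1 of 34, 17 of 33 and 1 of 57 in Aachen, Bonn and Hamburg held a UMI of a tubular marker, whose part was not tested. Among all resident macrophages, 52 of 3044, 399 of 1349 and 6 of 974 held such a UMI. Without Aachen the differences from T cells and cDC2 were 2.57 and 2.10 (adjusted p = 0.126 and 0.135), and without Hamburg those from T cells, cDC2 and NK_cell_1 were 4.43, 1.78 and 4.88 (adjusted p = 0.759, 0.963 and 1). For Il1b the medullary difference of resident macrophages was lower than that of NK_cell_1 (-2.56 ± 0.62, adjusted p = 0.0222), and it was -2.72 without Aachen (adjusted p = 0.384) and 0.45 without Hamburg (adjusted p = 1).

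The genes most like each member over the 21 clusters were found by Pearson's r of log2(CPM + 1), from 11948 genes with at least 100 UMIs, as a description over clusters that share libraries and depth. For Il1b they were Gm34084 (0.963), Cebpd (0.958), Igsf6 (0.954), Cd300c2 (0.949) and Nlrp3 (0.945), the last encoding the sensor of an inflammasome. For Il1rn they were Clec4e (0.928), Hcar2 (0.908), Sirpb1b (0.895), Slc7a11 (0.891) and Acod1 (0.890). For Tnf, Fam129a (0.917) and Abhd15 (0.893) led, for Il18 Erp29 (0.948) and Tmem50b (0.935), for Spp1 Rps27l (0.841) and Dcxr (0.820), and for Il1a 2010013B24Rik (0.850) and Spic (0.833), a transcription factor of macrophages. The best match of Il10 was Gbp3 (0.685), and Il6 was below the minimum of UMIs.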

How the data were processed

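Immune cells of kidney cortex, OM and IM were profiled in 3 datasets. According to the paper, the authors aligned reads to mm10 (Cell Ranger), filtered cells on detected genes and mitochondrial share, and used Seurat for clustering. The deposited values are expected counts of UMIs per gene and cell, not scaled to library size, whole in Aachen and Bonn and mostly not whole in Hamburg, for which no tool is given in the sources used here. Clusters are those of the authors, and doublets and free RNA were not treated further. Totals per library were 2.12e+06 to 1.53e+07 UMIs.

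Counts were summed per class and library (at least 10 cells), rounded to whole numbers and tested with edgeR 4.0.16 (R 4.3.3, filterByExpr, TMM, glmQLFTest, Benjamini-Hochberg over all genes tested), with the dataset as block because each dataset gave all 3 compartments. Differences of effects were interactions in the same model. CPM are not scaled by TMM. Thinning, permutation and motif searches used Python 3.11.15 with numpy 2.4.6 and scipy 1.17.1. The fits were tested on simulated data. DESeq2 1.42.0, RLE factors, no filter, no block, thinned cells and libraries left out were alternatives. All 8 members were named, and of the pathway lists each gene called in resident macrophages or else the one with the highest level. Receptors beyond that rule (Il1r1, Il18r1, Il10ra, Cd44) were chosen after their values were seen. The members and lists were chosen with earlier results of these data known. T cells, B cells and cDCs join T_cell_1 to T_cell_4, B_cell_1 to B_cell_3, and cDC1 and cDC2.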

Additional observations from a re-analysis of the deposited data

Results flagged for a closer look

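The difference of the medullary effect between 2 classes passed the threshold of the interaction in edgeR for 4 pairs. For Spp1, resident macrophages exceeded cDC2 by 2.24 on the log2 scale, a difference that was not called without Aachen or without Hamburg. In the cDC2 cortex 1 cell held 60% of the Spp1 UMIs in Aachen and 73.5% in Hamburg. The interaction was not refitted without these cells. The values of 2.999 against T cells and 6.19 against NK_cell_1 are not read as differences, because Spp1 did not pass the filter on low counts in either of these classes alone, and 1 cortex cell held most of their Spp1 UMIs in Aachen or Hamburg. For Il1b, the difference of resident macrophages from NK_cell_1 was -2.56, and 94.3% of the Il1b UMIs of NK_cell_1 lay in cells with macrophage or neutrophil markers.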

How the results depend on the processing

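In resident macrophages no member was called under any alternative except Il10 without Aachen (-2.24, adjusted p = 0.0337). Several differences changed sign: Il1b to 0.010 with the highest cell of each library left out and to 0.01 to 0.40 with libraries left out (range -0.39 to 0.40: 0.21 and 0.02 without the IM of Aachen or Hamburg, 0.01 without the OM of Bonn, 0.40 without the cortex of Aachen, 0.38 without Aachen), Tnf to 0.093 and 0.076 without the cortex of Aachen or all of Aachen (range -0.61 to 0.093), Il1rn to -0.15 and -0.37 without the IM or cortex of Hamburg (range -0.37 to 0.79), Spp1 to -0.046 and -0.023 without the IM of Bonn or the OM of Hamburg (range -0.046 to 0.28), and Il1a to -1.12 without the OM of Hamburg (range -1.12 to 5.56) and -0.80 without cells holding lymphocyte markers.

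The number of genes called in resident macrophages was 108, and 30 with DESeq2, 20 in thinned cells, 382 without a filter, 68 with Malat+_Macrophage and 6 to 262 with libraries left out. In cDC2 it was 15, and 8 with DESeq2, 37 without a filter and 1 to 18. In cDCs it was 132, and 53, 272 and 0 to 170. In NK_cell_1 it was 5, and 3 with DESeq2, 1 with RLE factors, 2 without cells holding myeloid markers and 0 to 10. Without the dataset as block, the pairing that each dataset gave all 3 compartments, the count was 0 in all 4 classes, Spp1 was -2.22 in cDC2 and -1.05 in cDCs, and Il1b in NK_cell_1 was 3.53, all not called.

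Spp1 in cDC2 was -2.05 with DESeq2 and -1.36 with the highest cells left out, neither called, and -2.40 to -1.66 with libraries left out; without Hamburg it fell below the filter. In cDCs it was -1.02 with the highest cells left out and -1.55 to -0.89 with libraries left out. Il1b in NK_cell_1 was 1.16 with DESeq2, 2.92 with RLE factors, 2.66 with the highest cells left out and 0.96 without cells holding myeloid markers, none called, and -1.06 to 4.45 with libraries left out, the lowest without the cortex of Hamburg. With datasets left out, the Spp1 difference of resident macrophages from T cells was 2.57 to 4.43, from cDC2 1.78 to 2.53 and from NK_cell_1 4.88 to 6.75, and that of Il1b from NK_cell_1 was -4.50 to 0.45. The Il1b to Il1rn ratio differed by -1.35 in Macrophage_2 alone (exact permutation p = 0.037, the smallest that 27 arrangements allow), where 0 to 4.63 Il1rn UMIs per library leave it set mostly by Il1b and the prior. Macrophage_3 alone gave no ratio because the cortex libraries of Aachen and Hamburg held none of its cells. Of 89 other settings of a level, 82 stayed within 1 SD. The causes were not tested. Il6, with 3, 4 and 36.2 UMIs in the datasets, passed the filter on low counts in no class.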
